A study of Rattus norvegicus with 26 samples.

Results

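The genes described are the inhibitors of the cyclin-dependent kinases and 3 further genes used as markers of cellular senescence, in the dentate gyrus (DG) of the rat hippocampus. They were listed by name and not by a cutoff on measured values, at a time when earlier results of these data were known. The 10 genes named are Cdkn1a, Cdkn1b and Cdkn1c of the CIP/KIP family, Cdkn2a, Cdkn2b, Cdkn2c and Cdkn2d of the INK4 family, the retinoblastoma gene Rb1, the lamin gene Lmnb1 and the lysosomal beta-galactosidase gene Glb1. Of these, 9 had values among 17910 gene IDs. Cdkn2d was not analysed here. A mean of at least 5 normalized counts over all rats was reached by 8 members, of 15595 genes in all, and Cdkn2a was the member with values that did not reach it.

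The rats were male, of the F344 strain and 6 months old. The Veh group held 10 rats that were gavaged with vehicle and belonged to a continuing study of senolytics in brain aging. The Dox group held 8 rats injected weekly with doxorubicin, an anthracycline that damages DNA. The Dox + ABT group held 8 rats that received doxorubicin and, by gavage, the senolytic ABT-263 (navitoclax), an inhibitor of Bcl-2 family proteins. There was no group with ABT-263 alone, all rats had been through behavioural testing before tissue was taken, and each library came from the DG of 1 hemisphere of 1 rat. In whole tissue, fewer cells of a type and less RNA per cell cannot be told apart.

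Senescent cells leave the cell cycle for good. CIP/KIP proteins bind and block several cyclin-dependent kinases, and INK4 proteins block Cdk4 and Cdk6, which otherwise phosphorylate the Rb1 protein and free the E2F factors that drive replication genes. Cdkn1a (p21) is switched on in the DNA damage response, Cdkn2a (p16) is the classical marker of lasting arrest, loss of Lmnb1 and higher lysosomal beta-galactosidase are common signs of senescence, and most neurons of the DG are themselves no longer dividing.

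The libraries held an estimated 10166231 to 24327755 reads each, from the value that 1 read was worth in each library. Along the first principal direction of the deviations from group means, the libraries fell into 2 kinds that differed in the share of counts from ribosomal protein genes, 0.891% ± 0.128 (SD, n = 16) in the low ribosomal kind and 1.48% ± 0.208 (SD, n = 10) in the high ribosomal kind. The low kind held 4 Veh, 5 Dox and 7 Dox + ABT rats, so kind and group are partly confounded, and the kinds were defined from these data. Dox rats 1 and 2, both of the low kind, also stood apart. They held the 2 highest values of all 26 rats in 6.43% of the genes tested and the 2 lowest in 4.71%. Results that rest on them are given with and without them. Of the granule cell markers of the DG, 3 had values, and their summed level was 7241 to 12426 normalized counts in every rat. The sum of 3 markers of CA pyramidal cells, a neighbouring region, ranged from 2566 to 18476.

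The promoters of Cdkn1a and Cdkn2a are shown because these were the members whose 2 highest values were in the same 2 rats. Each is a window of RefSeq sequence in the build GRCr8, from 250 bases before the gene's start to 50 after it, while the files use rn6. Of the 10 members, 9 matched this table by symbol. Capitals mark any of 6 short motifs, searched on both strands: the GC box with the letters GGGCGG, the CCAAT box named by its letters, the TATA box with the letters TATAAA, the E-box with the letters CACGTG, the AP-1 motif with the letters TGANTCA and the STAT motif with the letters TTCNNNGAA. The Cdkn1a window lies at chr20:7150682-7150981 on the plus strand and that of Cdkn2a at chr5:109107907-109108206 on the minus strand.
Cdkn1a: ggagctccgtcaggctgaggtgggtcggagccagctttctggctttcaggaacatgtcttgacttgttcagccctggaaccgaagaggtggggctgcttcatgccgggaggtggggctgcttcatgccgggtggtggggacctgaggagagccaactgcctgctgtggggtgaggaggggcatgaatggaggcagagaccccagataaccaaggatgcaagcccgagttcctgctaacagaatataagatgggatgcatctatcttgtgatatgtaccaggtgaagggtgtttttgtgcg
Cdkn2a: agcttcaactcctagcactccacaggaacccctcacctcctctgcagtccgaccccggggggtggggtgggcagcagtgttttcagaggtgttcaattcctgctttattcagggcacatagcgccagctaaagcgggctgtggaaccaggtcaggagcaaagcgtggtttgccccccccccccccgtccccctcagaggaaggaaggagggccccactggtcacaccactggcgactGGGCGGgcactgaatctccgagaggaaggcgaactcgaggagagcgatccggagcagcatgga
The Cdkn1a window held none of the 6 motifs, and that of Cdkn2a held 1 GC box, at bases 238 to 243 of the window. No matches overlapped in the members' windows. The other 7 matched windows held 1 to 6 GC boxes each, with 6 in that of Rb1. Over 33469 promoters of the same length, 33.1% held a GC box, 37.5% a CCAAT box, 14.2% a TATA box, 6.42% an E-box, 7.33% an AP-1 motif and 8.87% a STAT motif. A match is a description of letters only.

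Cdkn1a was higher in Dox than in Veh, and much of the difference lay in 2 of 8 rats. Its level was 510.4 normalized counts in Dox rat 1 and 530.3 in Dox rat 2. The other 6 Dox rats held 62.2 to 109.0, the 10 Veh rats 30.8 to 91.0 with a median of 55.4, and the 8 Dox + ABT rats 33.5 to 80.7 with a median of 65.0. Dox rats 1, 2 and 10 lay above every Veh rat, and all 8 lay above the Veh median. Cdkn1a is one of the genes that the study itself named as higher after Dox in these same rats, so its direction here is not independent evidence.

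**Figure D1:**
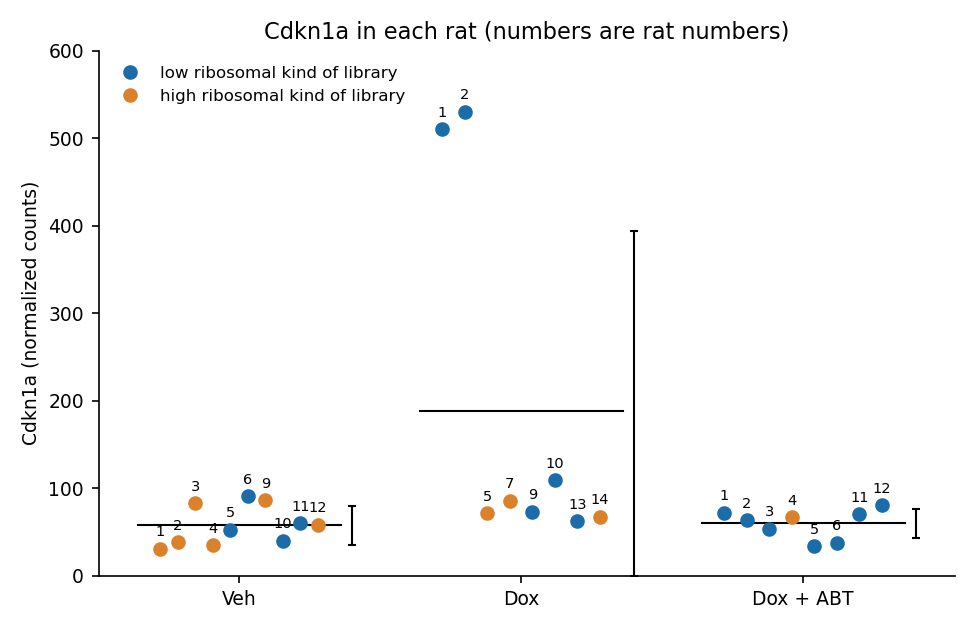
Normalized counts of Cdkn1a (vertical axis) in each rat by group, with the rat number above each point and the kind of library as colour. Lines are group means and bars 1 SD, cut at 0; Dox rats 1 and 2 sit at 510.4 and 530.3 and all other rats at or below 109.0.

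In means, Cdkn1a was 188.7 ± 205.3 in Dox (SD, n = 8), 57.4 ± 22.4 in Veh (n = 10) and 59.7 ± 16.8 in Dox + ABT (n = 8). With limma on log2(normalized counts + 1) over all 26 rats, Dox exceeded Veh by 1.20 ± 0.36 (SE, log2, p = 0.0027, adjusted p = 0.24, 2.29-fold). Dox exceeded Dox + ABT by 1.10 ± 0.38 (p = 0.0077, adjusted p = 0.23). Dox + ABT and Veh differed by 0.10 ± 0.36 (p = 0.80, 95% interval -0.65 to 0.84). Calls here are at an unadjusted p under 0.01, the threshold of the study, and no member passed a Benjamini-Hochberg adjusted p of 0.05 in any comparison.

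Without Dox rats 1 and 2 neither call was made. Dox then exceeded Veh by 0.51 on the log2 scale (limma p = 0.038) and exceeded Dox + ABT by 0.42 (limma p = 0.10). Within the low ribosomal kind, Dox exceeded Veh by 1.52 with those 2 rats (limma p = 0.0090) and by 0.44 without them (limma p = 0.19). Within the high kind, which holds neither rat, the difference was 0.55 (limma p = 0.12). The remaining Dox rats stayed on the higher side of Veh in each of these fits, by a size that the test did not separate from 0 at the threshold. Against Dox + ABT, leaving out Dox rat 1 or 2 alone, or Dox + ABT rat 3, 5 or 6, also lost the call, with p from 0.012 to 0.025. It was lost as well when the 2 groups were fitted alone (limma p = 0.0168), where Lmnb1 was the member called. Cdkn1a had 2 transcript rows, which held 88.8% and 11.2% of its counts, and both had their highest group mean in Dox, at 167.1 and 21.6 against 52.3 and 5.14 in Veh.

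Read against all genes, 1 of 8 members was called in Dox against Veh, where 2.87% of the 15595 genes tested were called (1.02% higher and 1.85% lower). In Dox + ABT against Veh 1 of 8 members, Lmnb1, was called, where 7.84% of genes were called (3.89% higher and 3.95% lower). In Dox against Dox + ABT 1 of 8, Cdkn1a, was called, where 4.03% of genes were called (2.32% higher and 1.71% lower). A share of 1 in 8 is above each of these, but it rests on a single gene in each comparison, and no test over the members was made. The split by direction turns with the scaling: under equal library totals it was 315 higher and 143 lower in Dox against Veh, 1916 and 92 in Dox + ABT against Veh, and 156 and 382 in Dox against Dox + ABT. Without Dox rats 1 and 2, no member was called in Dox against Veh by limma, where 1.16% of genes were called. At an unadjusted p under 0.05 that comparison held Cdkn1a alone among the 8 members, beside 763 of the 15595 genes.

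**Figure D2:**
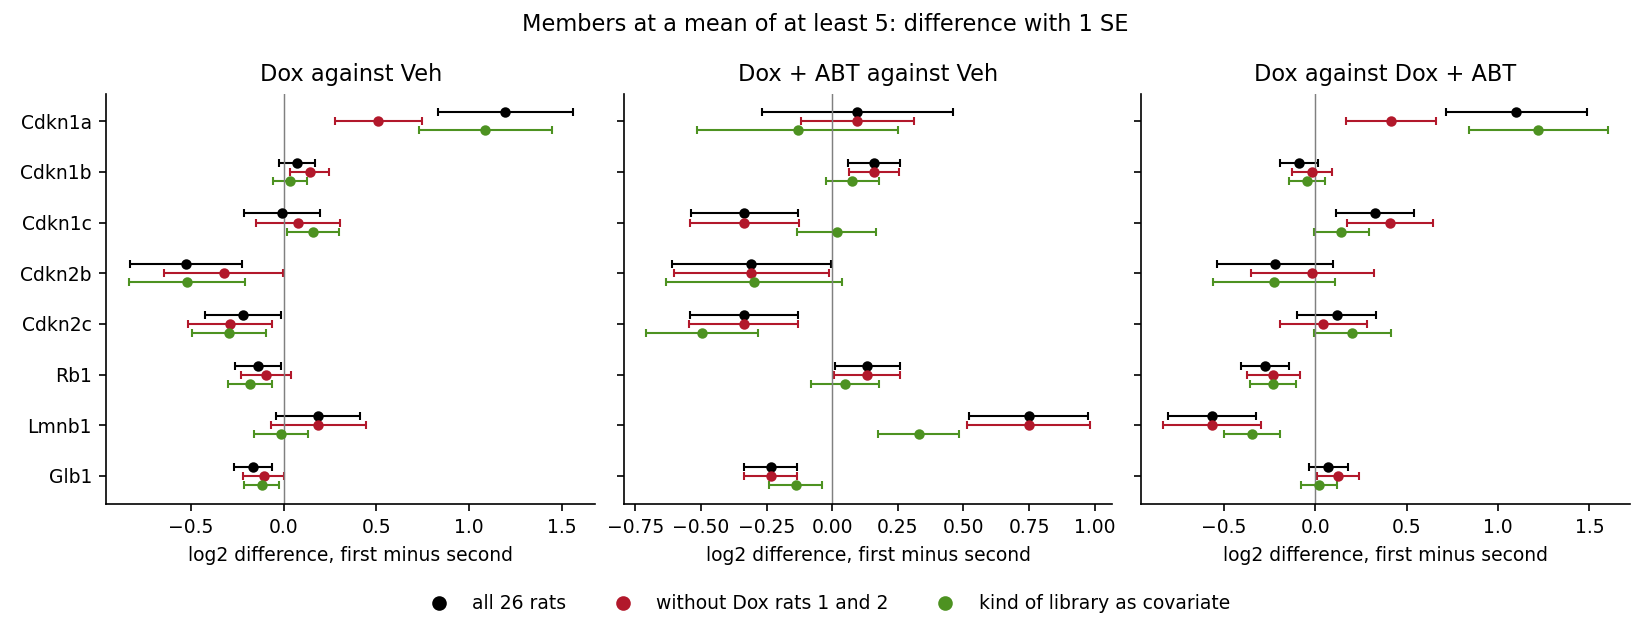
Log2 difference of the 8 members at a mean of at least 5 (horizontal axis, first group minus second) in the 3 comparisons, with bars of 1 SE. Black points use all 26 rats, red points leave out Dox rats 1 and 2 and green points add the kind of library; Cdkn1a moves from 1.20 to 0.51 without the 2 rats and Lmnb1 in Dox + ABT against Veh from 0.75 to 0.33 with the covariate.

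Of the other CIP/KIP genes, Cdkn1b (p27) is the inhibitor that holds many resting cells out of the cycle. It ranged from 203.6 to 351.3 in Veh with a median of 286.1, from 239.1 to 321.8 in Dox with a median of 292.8, and from 263.3 to 332.3 in Dox + ABT with a median of 307.1. The 3 groups overlapped, and no comparison was called (limma p from 0.12 to 0.47). Dox rats 1 and 2 held the 2 lowest Cdkn1b values of their group, 239.1 and 253.4, while they held the highest Cdkn1a.

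Cdkn1c (p57), an imprinted inhibitor that acts in quiescent stem cells, was 62.8 ± 21.9 in Veh (SD, n = 10), 61.4 ± 19.1 in Dox (n = 8) and 48.0 ± 11.2 in Dox + ABT (n = 8). It was not called (limma p = 0.11 for Dox + ABT against Veh). Its level followed the kind of library: in Veh it was 41.3 ± 6.93 in the 4 low kind rats and 77.2 ± 14.8 in the 6 high kind rats, and in Dox 49.2 ± 6.41 (n = 5) and 81.6 ± 14.8 (n = 3). With kind as a covariate the difference between Dox + ABT and Veh was 0.02 in place of -0.34 (log2, limma p = 0.91), while with array weights, which give the more variable libraries less weight, it was called at -0.49 (limma p = 0.0057). Those weights called 5297 of 15595 genes in that comparison. Its counts were divided between 2 rows whose group means moved in opposite directions, from 38.4 in Veh to 29.3 in Dox and 16.6 in Dox + ABT for 1 row and from 24.4 to 32.0 and 31.4 for the other. Their sum is what is tested here.

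Among the INK4 genes, Cdkn2a was near the floor of these libraries. It was 9.49 normalized counts in Dox rat 1, from 10 reads, and 9.39 in Dox rat 2, from 8 reads. These were the 2 highest of the 26 rats, and the next was 6.18 in Veh rat 6, from 7 reads. Their exact Poisson 95% intervals, which cover counting error only, were 4.55 to 17.4 and 4.05 to 18.5, so both overlap that of Veh rat 6, 2.49 to 12.7.

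The other 6 Dox rats held 0 to 4.61 Cdkn2a counts, Veh 0.43 to 6.18 and Dox + ABT 0 to 5.90. It was at 0 in Dox rat 13 and in Dox + ABT rats 5, 11 and 12, where a count of 0 allows up to 3.22, 2.64, 3.06 and 3.61 normalized counts by a floor of 3 reads. The upper bounds of the exact two-sided Poisson intervals, a wider measure, were 3.96, 3.25, 3.76 and 4.44 there. In two-sided exact permutation tests over rats, on the log2 scale with 1 added, Dox and Veh differed by 0.04 (p = 0.94), Dox + ABT and Veh by -0.66 (p = 0.16) and Dox and Dox + ABT by 0.70 (p = 0.27). Without Dox rats 1 and 2, the log2 difference between Dox and Veh was -0.46 (exact permutation p = 0.33). Cdkn2a encodes p16 and, in another frame, p19Arf, which gene counts do not separate.

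Cdkn2b (p15), the neighbour of Cdkn2a and a target of TGF-beta signalling, was low as well, at 4.25 to 16.1 in Veh, 3.07 to 16.6 in Dox and 4.15 to 12.05 in Dox + ABT. The Dox group held the highest and the lowest value of all 26 rats, in rats 9 and 5. Dox rats 1 and 2 held 3.79 and 3.52, near the low end. Dox and Veh differed by -0.53 ± 0.30 (SE, limma p = 0.092). Cdkn2c (p18), an inhibitor of Cdk4 and Cdk6 in precursor cells, was 42.4 ± 10.97 in Veh (SD, n = 10), 36.8 ± 10.2 in Dox (n = 8) and 33.7 ± 10.7 in Dox + ABT (n = 8), and no comparison was called (limma p from 0.11 to 0.59).

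**Figure D3:**
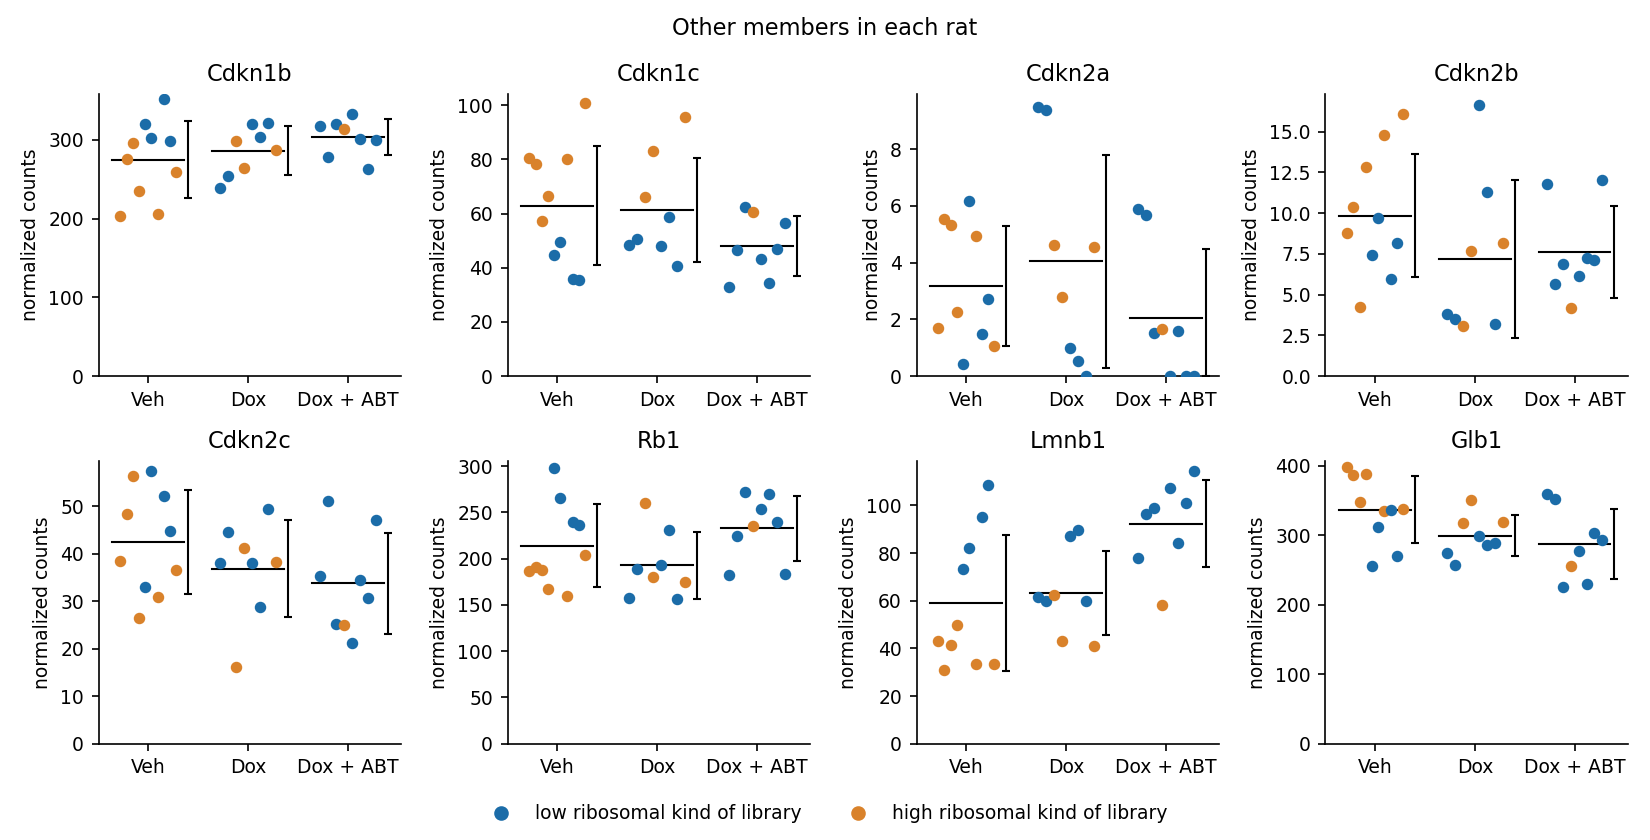
Normalized counts (vertical axes, from 0) of the 8 other members with values in each rat by group, coloured by kind of library. Lines are group means and bars 1 SD, cut at 0; Lmnb1 is 31.1 to 49.8 in the 6 Veh rats of the high kind and 73.4 to 108.7 in the 4 of the low kind.

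Of the remaining members, Lmnb1, which encodes lamin B1 of the nuclear envelope, was called in Dox + ABT against Veh and was higher in Dox + ABT. It ranged from 58.1 to 114.5 in Dox + ABT with a median of 97.8, from 31.1 to 108.7 in Veh with a median of 46.4 and from 40.9 to 89.5 in Dox with a median of 60.9. All 8 Dox + ABT rats lay above the Veh median, and 1 lay above every Veh rat. The difference was 0.75 ± 0.23 (SE, log2, limma p = 0.0026, adjusted p = 0.11, 1.68-fold).

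Lmnb1 also moved with the kind of library. In Veh it was 89.9 ± 15.4 in the 4 low kind rats (SD) and 38.6 ± 7.29 in the 6 high kind rats, with no overlap. In Dox + ABT, 7 of 8 rats were of the low kind and held 97.2 ± 12.7, and the single high kind rat held the lowest value of the group. Within the low kind, Dox + ABT and Veh differed by 0.12 (limma p = 0.48), and with kind as a covariate by 0.33 (limma p = 0.041), so the call was lost in both. Dox against Dox + ABT was -0.56 ± 0.24 (SE, limma p = 0.026) over all rats. The same difference was called when the 2 groups were fitted alone (limma p = 0.0047), and within the low kind it was called at -0.45 (limma p = 0.0079), but not there without Dox rats 1 and 2 (-0.31, limma p = 0.089). With kind as a covariate it was not called (-0.34, limma p = 0.032). Dox against Veh was not called over all rats (0.18, limma p = 0.42) or within the low kind (-0.33, limma p = 0.071), and with array weights Lmnb1 was called higher in Dox than in Veh (0.54, limma p = 0.0090). Those weights called 3150 of 15595 genes in that comparison.

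Rb1, the pocket protein that restrains E2F, ranged from 160.1 to 298.4 in Veh with a median of 197.4, from 156.6 to 260.6 in Dox with a median of 184.5 and from 182.8 to 272.2 in Dox + ABT with a median of 237.4. With equal weights no comparison over all rats was called (limma p = 0.27 for Dox against Veh, 0.29 for Dox + ABT against Veh and 0.045 for Dox against Dox + ABT). With array weights Rb1 was called lower in Dox than in Dox + ABT (-0.34, limma p = 0.0071), where 1612 of 15595 genes were called. Within the low kind, Rb1 was 185.6 ± 30.8 in Dox (SD, n = 5) and 260.1 ± 28.8 in Veh (n = 4). That difference was -0.49 on the log2 scale (limma p = 0.0035), and -0.43 without Dox rats 1 and 2 (limma p = 0.020). Within the high kind it was 0.14 (limma p = 0.36), in the other direction.

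Glb1, the enzyme behind the beta-galactosidase stain of senescent cells, was 337.0 ± 47.9 in Veh (SD, n = 10), 299.2 ± 29.5 in Dox (n = 8) and 287.4 ± 50.8 in Dox + ABT (n = 8). It lay below the Veh median in 7 of 8 Dox rats and in 6 of 8 Dox + ABT rats. Neither difference was called, at -0.16 ± 0.10 (SE, limma p = 0.12) and -0.23 ± 0.10 (limma p = 0.029). With array weights both were called, at -0.28 (limma p = 0.0095) and -0.37 (limma p = 0.00041), where 3150 and 5297 of 15595 genes were called. The second was also called without Veh rat 5 (-0.28, limma p = 0.0097) and without Dox + ABT rat 1 (-0.28, limma p = 0.0098). Glb1 also moved with the kind of library, at 294.0 ± 37.1 in the 4 low kind Veh rats (SD) and 365.8 ± 28.7 in the 6 high kind ones, and with kind as a covariate the differences were -0.12 and -0.14 (limma p = 0.22 and 0.18).

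Whether other members followed Cdkn1a was asked over rats, from deviations from group means on the log2 scale, with 100000 permutations within groups and Benjamini-Hochberg adjustment over the 8 relations. No relation passed an adjusted p of 0.05 over the 26 rats. The nearest was Cdkn2a, with Pearson r = 0.51 (permutation p = 0.017, adjusted p = 0.14) and Spearman rho = 0.46 (permutation p = 0.022, adjusted p = 0.18). Without the 2 rats farthest from the Cdkn1a median, which were Dox rats 1 and 2, r was 0.24 (permutation p = 0.26) and rho 0.22 (permutation p = 0.31), so the relation rested on those rats. Within the low kind r was 0.70 (n = 16, permutation p = 0.018, adjusted p = 0.071), and 0.34 without them (permutation p = 0.29). Within the high kind it was 0.36 (n = 10, permutation p = 0.44).

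**Figure D4:**
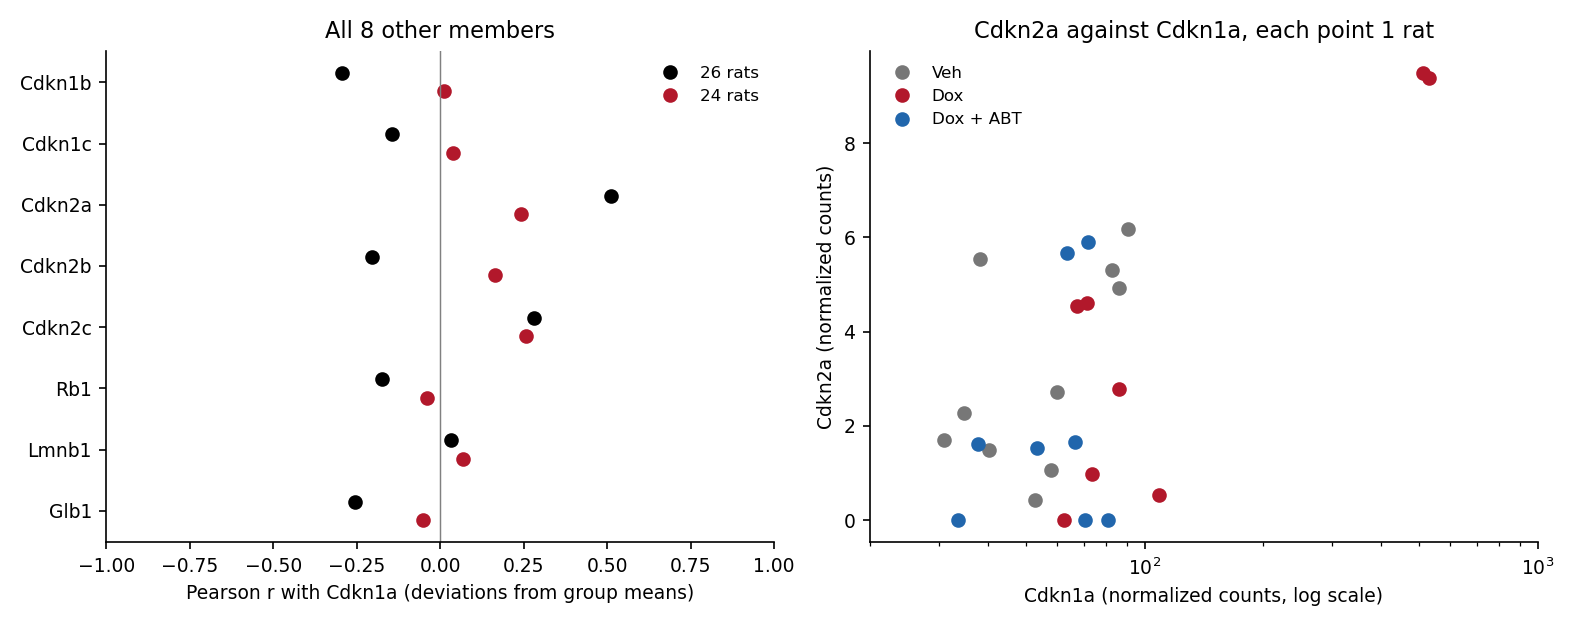
Left, Pearson r of each other member with Cdkn1a, from deviations from group means, over 26 rats (black) and over 24 without Dox rats 1 and 2 (red). Right, Cdkn2a against Cdkn1a in normalized counts (horizontal axis on a log scale), each point 1 rat; the 2 points at the upper right are Dox rats 1 and 2.

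The other 7 relations over 26 rats had r from -0.30 for Cdkn1b to 0.28 for Cdkn2c, with adjusted permutation p from 0.35 to 0.87. Over 24 rats all 8 lay between -0.05 and 0.26, each with an adjusted permutation p of 0.97. Cdkn1b was the exception within a kind of library. In the 16 low kind rats its r with Cdkn1a was -0.84 and its rho -0.82 (permutation p = 0.0018 and 0.0028, adjusted p = 0.015 and 0.023). Without Dox rats 1 and 2 they were -0.61 and -0.59 (n = 14, permutation p = 0.041 and 0.052, adjusted p = 0.18 and 0.21), and in the 10 high kind rats 0.19 and 0.15 (permutation p = 0.68 and 0.77).

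The 6 genes whose deviations were most like those of Cdkn1a, among 12128 others with a mean of at least 50, were Cry2, Ptp4a3, Mafk, Dusp1, Zfp36 and Mfsd2a, with r from 0.83 to 0.88. These values are a description, as all genes were read from the same 26 libraries. Cry2, a repressor of the circadian clock, was 2866 and 3272 in Dox rats 1 and 2 and at most 2109 in the other 24 rats. Zfp36, which speeds the decay of inflammatory mRNAs, was 439.2 and 607.8 against at most 122.6. Dusp1, a phosphatase that switches off MAP kinases, was 774.1 and 712.2 against at most 306.9.

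All 6 had their 2 highest values in those rats. Over the other 24 rats r fell to between 0.29 for Zfp36 and 0.71 for Mafk, and Mafk, a small Maf transcription factor, was the only one of the 6 still among the first 7. Over those 24 rats the 6 most alike were Rassf3, Unc5b, Itgam, Casp9, Slc2a1 and Zfp365, with r from 0.71 to 0.77, which is a different set. None of the first 6 was called in Dox against Veh (limma p from 0.022 to 0.67).

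Of the target genes of the DNA damage response other than Cdkn1a, 13 of 15 listed had values and all were tested. None was called in Dox against Veh or Dox + ABT against Veh by limma, with Btg2 at p = 0.029 in Dox against Veh. Btg2, an antiproliferative gene, was called higher in Dox than in Dox + ABT (0.45 ± 0.13, SE, log2, limma p = 0.0019), and without Dox rats 1 and 2 it was 0.25 (limma p = 0.022). The median difference of the list was 0.00 in Dox against Veh, where that of all genes was 0.00. Btg2, Sesn1 and Aen, 3 of 13, held their 2 highest values in those 2 rats, against 6.43% of all genes, and none of the 13 held its 2 lowest there. Under equal library totals, 1 of the 13 was called higher in each of the 2 comparisons with Veh and none in Dox against Dox + ABT, so the Btg2 call there was lost. Of 15595 genes, 315 were then called higher in Dox than in Veh and 1916 in Dox + ABT than in Veh.

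**Figure D5:**
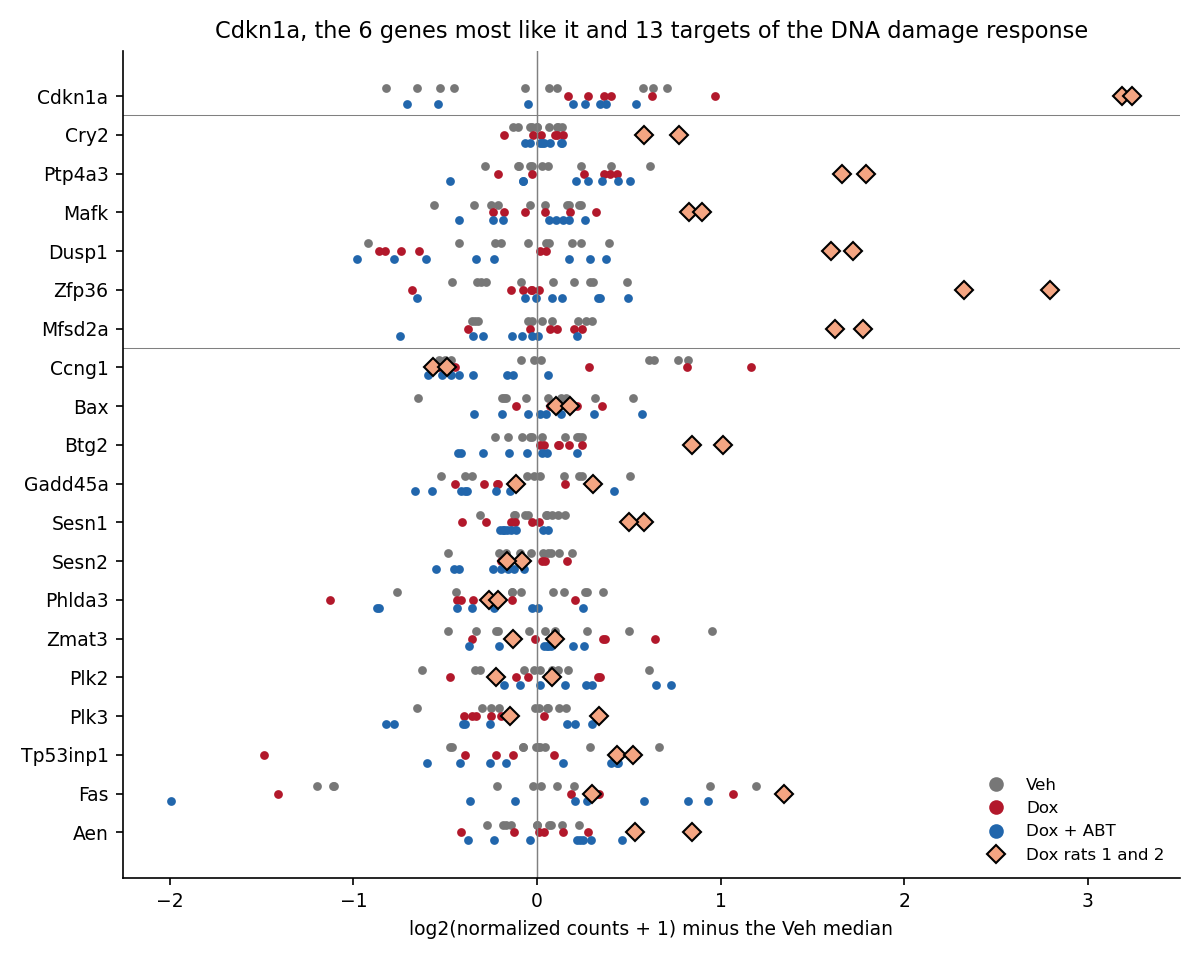
Log2(normalized counts + 1) of each rat minus the Veh median (horizontal axis) for Cdkn1a, the 6 genes most like it and 13 targets of the DNA damage response, with groups as colours and Dox rats 1 and 2 as diamonds. The 6 like genes have both diamonds to the right of every other rat, as do 3 of the 13 targets (Btg2, Sesn1 and Aen).

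Of 14 regulators of the inhibitors, none was called in any comparison by limma, where the smallest p were those of Mdm4 and Cks1b, a partner of Skp2, both in Dox + ABT against Veh (0.53 and -0.30, log2, limma p = 0.017 and 0.023). Under equal library totals 1 of the 14 was called higher in Dox + ABT than in Veh, where 1916 of 15595 genes were. Foxo3, a transcription factor that can switch on Cdkn1b, was named after its values were seen, because it passed with kind as a covariate. It was then 0.44 higher in Dox than in Dox + ABT and -0.42 in Dox + ABT against Veh (limma p = 0.0019 and 0.0032), where it was 0.35 and -0.24 without the covariate (limma p = 0.026 and 0.092). The 2 highest values of Mdm2, a ubiquitin ligase of the DNA damage response, were in Dox rats 1 and 2, at 451.6 and 504.5 against at most 419.3. The same held for Cbx7, a Polycomb repressor of the INK4 locus, at 1114 and 1323 against at most 1032, and for Skp2 and Cul1, subunits of the ligase that degrades the Cdkn1b protein. That made 4 of 14, beside 6.43% of all genes, and 1 of 14, Bmi1, held its 2 lowest values there, beside 4.71% of all genes. These regulators were named after their values were seen.

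Among the kinases and cyclins, 1 of 9 tested was called in Dox against Veh, where 1.85% of all genes were called lower. Ccnd1, the cyclin D1 partner of Cdk4 and Cdk6, was lower in Dox (309.7 ± 133.6, SD, n = 8) than in Veh (510.2 ± 93.0, n = 10). The log2 difference was -0.88 (limma p = 0.00080, adjusted p = 0.16). Its 2 lowest values were 96.8 and 112.6 in Dox rats 1 and 2, where the other 24 rats held 267.9 to 659.9. It was also called without them, at -0.42 (limma p = 0.0043).

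Of 9 pocket protein and E2F genes tested, none was called by limma, and Rbl2 in Dox + ABT against Veh (0.21, p = 0.033) and E2f2 in Dox against Veh (0.30, p = 0.037) had the smallest p. Under equal library totals 1 of the 9 was called higher in Dox + ABT than in Veh, where 1916 of 15595 genes were. Of 12 replication genes tested, 1 was lower in Dox than in Veh and 2 in Dox + ABT than in Veh, and none was higher. Of all genes, 1.85% and 3.95% were called lower in these comparisons. Mcm6, a subunit of the replicative helicase, was -0.35 in Dox against Veh (limma p = 0.0093) and -0.52 in Dox + ABT against Veh (limma p = 0.00028), and Mcm7 of the same helicase was -0.42 in the latter (limma p = 0.00078). These comparisons share the Veh rats. Scaled to equal library totals, no replication gene was called in Dox against Veh, and 1 was called higher and 1 lower in Dox + ABT against Veh. Of 15595 genes, 1916 were called higher and 92 lower there. Without Dox rats 1 and 2, Mcm6 in Dox against Veh was -0.36 (limma p = 0.016), and with kind as a covariate -0.30 (limma p = 0.020).

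Of the secreted factors of senescent cells, 15 of 23 with values were tested, and 2 were called higher in Dox than in Veh, as were 1.02% of all genes. Tnf was 44.5 and 71.0 in Dox rats 1 and 2 and at most 8.80 in the others. Its difference was 1.47 ± 0.50 (SE, log2, limma p = 0.0063) and 0.59 without them (limma p = 0.12). The mean over all rats that admitted Tnf to the tests included the 44.5 and 71.0 of these rats. Its selection was thus not independent of the values tested, which limits these p-values and its place among the 2 called. Vegfa, the angiogenic factor, was 1409 ± 462.9 in Dox (SD, n = 8), 1335 ± 212.1 in Dox + ABT (n = 8) and 883.9 ± 355.6 in Veh (n = 10). Its log2 differences from Veh were 0.72 and 0.69 (limma p = 0.0019 and 0.0028). Dox against Veh was called without rats 1 and 2 as well (0.88, limma p = 0.00052), and Dox + ABT against Veh was 0.47 with kind as a covariate (limma p = 0.029).

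Tnf was also higher in Dox than in Dox + ABT, by 2.03 ± 0.52 (SE, limma p = 0.00059) and by 1.15 without the 2 rats (limma p = 0.0057). The group means were 17.8 and 1.43 normalized counts, the latter close to the value of 1 read. Tnf was admitted by a mean that included the high values of the 2 rats, also in the fit without them. These p-values, and its place in the count below, are thus not independent of its selection. Timp2, an inhibitor of matrix proteases, was lower in Dox + ABT than in Veh (-0.37, limma p = 0.0096), and -0.15 with kind as a covariate (limma p = 0.15). Of the 15 secreted factors tested, 4 held their 2 highest values in Dox rats 1 and 2, namely Tnf, Icam1, Igfbp3 and Plau, beside 6.43% of all genes, and the median difference of the list in Dox against Veh was 0.02.

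Around Lmnb1, 7 genes of the lamina and chromatin were tested. Lmna, which encodes lamins A and C, was lower in Dox + ABT (773.9 ± 110.6, SD, n = 8) than in Veh (1082 ± 219.2, n = 10) and than in Dox (1054 ± 109.1, n = 8). The difference from Veh was -0.47 (limma p = 0.00024), Dox exceeded Dox + ABT by 0.45 (limma p = 0.00063), and it was called in both with kind as a covariate (limma p = 0.0028 and 0.00039). Lmna and Lmnb1 thus differed in direction in Dox + ABT against Veh. Hmgb1, a chromatin protein that leaves senescent nuclei, was higher in Dox + ABT than in Veh (0.55, limma p = 0.0018), and 0.35 with kind as a covariate (limma p = 0.024).

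Around Glb1, 9 lysosomal genes were tested, with 1 lower in Dox than in Veh, 2 lower in Dox + ABT than in Veh and none higher in either, where 1.85% and 3.95% of all genes were called lower. Hexa, a glycosidase of ganglioside breakdown, was -0.25 in Dox against Veh (limma p = 0.0092), and -0.17 without Dox rats 1 and 2 (limma p = 0.079), which held its 2 lowest values. It was 1 of 9 to do so, beside 4.71% of all genes, and 1 of 9 held its 2 highest values there, beside 6.43%. Ctsa and Neu1, which form a complex with the Glb1 protein, were -0.29 and -0.33 in Dox + ABT against Veh (limma p = 0.0034 and 0.0053). With kind as a covariate all 3 calls were lost: Hexa was -0.20 (limma p = 0.015), Ctsa -0.17 (limma p = 0.039) and Neu1 -0.24 (limma p = 0.036). In both comparisons 8 of the 9 lay below 0. The median difference was -0.15 in Dox against Veh and -0.14 in Dox + ABT against Veh, beside 0.00 for all genes in each. Under equal library totals, which shift all genes of a library alike, none of the 9 was called in either comparison, and the median was -0.05 in Dox against Veh and 0.03 in Dox + ABT against Veh, beside 0.10 and 0.17 for all genes.

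Markers of other cells moved in the same comparisons, and their part in the results above was not tested. Of all genes, 1.85% were called lower and 1.02% higher in Dox than in Veh. Against Dox + ABT, 1.71% were called lower in Dox, and 3.95% were called lower in Dox + ABT than in Veh. Of 6 microglia markers, 3 (Aif1, Cx3cr1 and Tmem119) were called lower in Dox than in Veh, beside 1.85% of all genes, and none of them without Dox rats 1 and 2. In that comparison 1 of the 6 lay above 0. In Dox rats 1 and 2, 4 markers (Aif1, Cx3cr1, P2ry12 and Tmem119) held their 2 lowest values, beside 4.71% of all genes. The sums over the 6 were 2881 and 3169 there, where Veh held 3186 to 5582 and Dox + ABT 2884 to 4896. Dox rat 1 thus lay just below the lowest Dox + ABT rat and Dox rat 2 above it. Under equal library totals 2 of the 6 were called lower in Dox than in Veh, where 143 of 15595 genes were. With kind as a covariate Aif1 and Cx3cr1 were called and Tmem119 was not (limma p = 0.012). Csf1r was lower in Dox + ABT than in Veh (-0.48, limma p = 0.0020), and the call was lost with kind as a covariate (-0.25, limma p = 0.029) and under equal library totals, where no microglia marker was called in that comparison. Of 6 astrocyte markers, 3 were called lower in Dox than in Veh, beside 1.85% of all genes, and 2 of the 6 lay above 0. Gfap was lower by a log2 difference of -0.75, Aldh1l1 by -0.43 and Aqp4 by -0.43 (limma p = 4.1e-05, 0.0034 and 0.0013), and all 3 were called without the 2 rats. Under equal library totals 2 of the 6 were called lower in Dox than in Veh, beside 143 of 15595 genes, so at least 1 of the 3 calls was lost. Aldh1l1 was also lower in Dox + ABT than in Veh (-0.47, limma p = 0.0017), where the 6 astrocyte markers split into 3 above and 3 below 0 with a median of -0.06. That call was lost with kind as a covariate (-0.33, limma p = 0.018) and under equal library totals. Aqp4 was lower in Dox than in Dox + ABT (-0.45, limma p = 0.0014). Of 5 oligodendrocyte markers, Cnp was lower in Dox than in Veh (-0.39, limma p = 0.0072), and it was not called without Dox rats 1 and 2 (-0.32, limma p = 0.038), with kind as a covariate (-0.37, limma p = 0.011) or under equal library totals. Of 3 granule cell markers, C1ql2 was lower in Dox + ABT than in Veh (-0.46, limma p = 0.00070), and it was called with kind as a covariate (limma p = 0.0081) but not under equal library totals. Haemoglobin and Alas2 transcripts, a measure of blood, summed to 3608 to 128552 counts in Dox and 2327 to 25997 in Veh, with 25720 and 29116 in Dox rats 1 and 2, and none of the 4 was called. With kind as a covariate all 4 were called higher in Dox than in Veh, where 167 of 15595 genes were, with a median of 1.47 (log2, with Alas2 at 1.63, limma p = 0.00057). As a measure of blood, the 4 are not separate results. Of the 2 markers of dividing cells, Mki67 was 610.0 and 558.5 in Dox rats 1 and 2 and at most 316.7 in the others, and Top2a was at 0 and 5.87 there. Mki67 was called in Dox against Veh (0.86, limma p = 0.0024), and was 0.45 without the 2 rats (limma p = 0.041). Over all 26 rats, endothelial, choroid plexus and CA pyramidal markers gave no call between groups, and 1 of 4 meningeal markers, Lum, was lower in Dox than in Veh and than in Dox + ABT (-0.90 and -0.77, limma p = 0.0015 and 0.0082). Without Dox rats 1 and 2 neither Lum call was made (-0.77 and -0.64, limma p = 0.010 and 0.037).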

How the data were processed

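Poly(A) RNA of the dentate gyrus, 1 library for each of 26 rats, was sequenced on an Ion Proton. Per the study's methods, the authors aligned reads with STAR to rn6 in Partek Flow. The sample records give version 2.5.3a of STAR. The deposited signal was counts scaled by median ratios, for 24012 transcript rows. DESeq2 was the authors' tool. Rows were summed here to 17910 gene IDs. Of the low values, 74.3% to 77.5% were whole reads within 0.01, so no count test was run. Genes averaging 5 or more over all rats (15595) were fitted with limma 3.58.1 (R 4.3.3, variance trend) on log2(value + 1), which understates changes of low genes, with 3 groups and no covariate. Calls were at p under 0.01. Cdkn2a was tested by exact permutation over rats. On data simulated for Dox against Veh, 87% of 200 genes changed by 1 (log2, of 15595) were recovered, and 1.05% of the others were called. The simulation used independent normal noise and the same change in every Dox rat. It held no kinds of library and no rats that stood apart, so its 87% does not carry over to the real comparisons. The members and lists were chosen with earlier results of these data known. Named genes were all members, each list's called genes or otherwise the 2 with the smallest p, and the 6 genes most like Cdkn1a. Genes named for their values in Dox rats 1 and 2, for the ranking over 24 rats or for a call with the covariate alone were chosen after values were seen. Kinds of library were defined after values were seen. Intervals and floors cover counting error only. Some listed genes are not reported here.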

Additional observations from a re-analysis of the deposited data

How the results depend on the processing

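Dox against Veh gave 448 genes called. It gave 3150 with array weights, 765 with a replicate block, 181 without Dox rats 1 and 2, 742 within the low ribosomal kind, 268 within it without those rats, and 266 to 707 leaving out 1 rat, the lowest without Dox rat 1 (271 without Dox rat 2) and the highest without Veh rat 11. Dox + ABT against Veh gave 1222, then 5297 with array weights, 2008 with equal library totals (1916 higher and 92 lower, against 606 and 616), 214 with kind as a covariate, 172 within the low kind and 695 to 2130 leaving out 1 rat (742 or less without Veh rat 9 or Dox + ABT rat 3, 5 or 6, 760 and 788 without Veh rats 1 and 2, 1855 and 2130 without Veh rats 10 and 11). Dox against Dox + ABT gave 629, then 1612 with array weights, 403 with the block, 1281 within the low kind and 419 to 787 leaving out 1 rat, the lowest without Dox + ABT rat 5. Under equal totals the all-gene medians were 0.10, 0.17 and -0.08 (log2), where they were 0.00 in all 3 comparisons.

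Members called in Dox against Veh numbered 1, with 3 under array weights (Lmnb1 and Glb1 added), 2 within the low kind (Rb1 added), and 0 without Dox rats 1 and 2, within the high kind, or within the low kind without them. In Dox + ABT against Veh they numbered 3 under array weights (Cdkn1c and Glb1 added), 0 with kind as a covariate or within the low kind, and 1 to 2 leaving out 1 rat (Glb1 added without Veh rat 5 or Dox + ABT rat 1). In Dox against Dox + ABT they numbered 2 under array weights (Rb1 added) or within the low kind (Lmnb1 added), 1 with 2 groups only (Lmnb1 in place of Cdkn1a), 0 with no variance trend, equal totals, without rats 1 and 2 or within the low kind without them, and 0 to 1 leaving out 1 rat.

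Cdkn1a in Dox against Veh was 0.90 to 1.34 leaving out 1 rat, 0.51 without Dox rats 1 and 2, 0.55 within the high kind, 0.44 within the low kind without them and 1.87 with the replicate block (limma p = 0.00087). In Dox + ABT against Veh it was 0.0089 to 0.20 leaving out 1 rat, and -0.13 with kind as a covariate, -0.031 with the block and -0.053 within the low kind. In Dox against Dox + ABT it was 0.80 to 1.24 leaving out 1 rat, 1.10 with no trend (limma p = 0.0103) or with 2 groups only (limma p = 0.0168), 1.03 with equal totals, 0.42 without rats 1 and 2, 0.49 within the low kind without them and 1.90 with the block. The rat numbers were not taken to pair the samples: of 16 same-numbered pairs, 6 correlated over 0.1, from -0.22 to 0.44. Pairs with different numbers were not set beside these values, which therefore cannot decide the question.

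Reversals of members not called in Dox against Veh were as follows. Cdkn1c, at -0.0078, became 0.085 with equal totals, 0.16 with the covariate, 0.076 without Dox rats 1 and 2, 0.25 within the low kind, 0.24 there without them, 0.084 within the high kind and -0.11 to 0.076 leaving out 1 rat. Lmnb1 became -0.014 with the covariate, -0.33 within the low kind and -0.19 there without rats 1 and 2. Cdkn1b became -0.15 within the low kind and -0.010 there without them, Rb1 0.14 within the high kind, Cdkn2b 0.16 within the low kind without them, and Cdkn2a -0.034 with 0.5 added and -0.46 without the rats.

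In Dox + ABT against Veh, Cdkn1c became 0.016 with the covariate. Within the low kind Cdkn1b became -0.077, Cdkn1c 0.14, Cdkn2b 0.022 and Rb1 -0.17. In Dox against Dox + ABT, Cdkn2b became 0.047 with array weights and 0.14 within the low kind without rats 1 and 2, where Cdkn1b became 0.067. Glb1 became -0.0052 with equal totals, -0.082 with the block and -0.035 within the low kind, and Cdkn2c -0.043 with the block. Relations to Cdkn1a turned for Cdkn1b (0.011 over 24 rats, 0.19 in the high kind), Cdkn1c (0.036 over 24 rats, 0.15 within group and kind, 0.24 in the low kind), Cdkn2b (0.16 over 24 rats) and Lmnb1 (-0.31 within group and kind, -0.34 in the low and -0.30 in the high kind). The causes were not tested.

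A fit within the high kind was possible for Dox against Veh only. Fits within a kind, without Dox rats 1 and 2, or both, and their relations, were chosen after seeing the data. Cdkn2a and Cdkn2b rested on at most 10 and 17 reads in a library, which limits their precision.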
